A study of Mus musculus with 4 samples.

Results

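The mitochondrial genome encodes 6 of the subunits of respiratory complexes III, IV and V, and the transcripts of all 6 were measured in the young mouse lens. They are mt-Cytb of complex III, mt-Co1, mt-Co2 and mt-Co3 of complex IV, and mt-Atp6 and mt-Atp8 of complex V. They were chosen by gene symbol alone, as the mt-Cytb, mt-Co and mt-Atp genes, and make up 6 of the 10790 genes in the table. The study compared whole lenses of Tdrd7-/- mice with lenses of wild type control mice at postnatal day 4. Each genotype had 2 libraries, and each library held the RNA of 15 pooled lenses. The mutant mice are labelled null for Tdrd7, which encodes an RNA granule protein with Tudor domains and is mutated in some congenital cataracts. No source used here gives the nature of the null allele, the strain or the sex of the animals.

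Complex III passes electrons from ubiquinol to cytochrome c, complex IV passes them on to oxygen, and complex V uses the proton gradient that results to make ATP. Each is a mosaic of a few subunits made inside the mitochondrion and many subunits encoded in the nucleus. In the lens, mitochondria are kept by the epithelium and the young fiber cells and are removed as fibers mature. A lens pool holds both kinds of cell, so a change in the number of cells with mitochondria and a change in mitochondrial RNA per cell cannot be told apart in these values. The mitochondrial genome is transcribed into long precursors that are cut into single messages, most of which then receive a short poly(A) tail. These libraries were made from RNA captured on oligo-dT beads, so a transcript had to carry such a tail to be read well.

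mt-Atp8 and mt-Atp6 lie on a single message with overlapping reading frames. The sequence of mt-Atp8 is shown because its values stood apart from those of the other 5 genes. It lies on the plus strand of the mitochondrial genome at chrM:7766-7969 in GRCm38 and is taken from GENCODE M21. It has 204 bases, and the last 43, in capitals, are also the first 43 bases of mt-Atp6.
mt-Atp8: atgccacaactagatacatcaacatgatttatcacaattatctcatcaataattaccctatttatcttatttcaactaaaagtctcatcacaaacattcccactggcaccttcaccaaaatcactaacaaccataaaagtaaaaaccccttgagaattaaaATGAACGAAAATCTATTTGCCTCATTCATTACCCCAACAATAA
That overlap leaves mt-Atp8 with 161 bases of its own and mt-Atp6, which shares its last base with mt-Co3, with 637. A read that reaches into the shared stretch overlaps both genes, and no source used here says how the authors' counting treated it. Since the libraries were not stranded, transcripts of the opposite strand would add to these values.

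The last 30 bases of the 6 genes are shown with the stop signal in capitals. They are annotated ends of genes, and the ends of messages were not mapped. The end of mt-Atp8 lies inside mt-Atp6 on their shared message. In 4 of the 6 genes the stop codon is complete in the gene. mt-Co3 and mt-Cytb end in a lone T, and in such messages the tail itself supplies the rest of the stop codon.
mt-Cytb: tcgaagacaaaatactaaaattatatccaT
mt-Co1: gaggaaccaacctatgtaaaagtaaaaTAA
mt-Co2: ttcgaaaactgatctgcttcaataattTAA
mt-Co3: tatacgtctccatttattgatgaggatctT
mt-Atp8: tatttgcctcattcattaccccaacaaTAA
mt-Atp6: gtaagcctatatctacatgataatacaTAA
The genes are all on the plus strand of the mitochondrial genome and have a single exon. Their ends lie at chrM:15259-15288 for mt-Cytb, chrM:6843-6872 for mt-Co1, chrM:7667-7696 for mt-Co2, chrM:9361-9390 for mt-Co3, chrM:7940-7969 for mt-Atp8 and chrM:8578-8607 for mt-Atp6.

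Some of these sequences have copies in the nuclear genome, which makes their values uncertain. In the annotated transcripts, Gm28661 on chromosome 1 matches mt-Co2 over 681 bases at 100% identity. Gm10925 matches mt-Atp6 over 678 bases and Gm28437 matches mt-Co3 over 783 bases, both also on chromosome 1 and at 100% identity. mt-Co1 matches Gm29216 over 483 bases at 99.8% and Gm13340 on chromosome 2 over all 1545 bases at 97.6%. Gm13341, also on chromosome 2, matches all 684 bases of mt-Co2 at 95.9%. mt-Cytb matches Gm11410 on chromosome 4 over 1142 bases at 92.9%. The closest annotated copy of mt-Atp8, Gm28925, is 81.4% identical over 167 bases. Nuclear sequence outside annotated transcripts was not searched, and none of the copies named has a row among the genes analysed here.

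The values are scaled reads, which are read counts per gene divided by 1 factor per library. Reads in the listed genes came to between 33920522 and 42767535 per library. The targeted gene went with the labels, since Tdrd7 had 165 and 96.6 scaled reads in the Tdrd7 null libraries, against 1188 and 972 in the control libraries. Reads outside the targeted change would still be counted for it. Of 10 lens fiber markers 10 were tested and of 7 lens epithelium markers 6. Of the fiber markers 1, Hsf4, fell, and of the epithelium markers 1, Gja1, rose and 1, Foxe3, fell. Over all genes tested, 18.0% were called by limma. With each library's trends on GC content and length removed, none of these markers passed. Hsf4 then stood at -0.08, Gja1 at 0.20 and Foxe3 at -0.13 on the log2 scale. The 5 tested epithelium markers other than the crystallin gene Cryab summed to 365 and 361 scaled reads in the Tdrd7 null libraries and 348 and 364 in the control libraries, and the groups overlapped. Of 6 pigment epithelium markers 1, Tyrp1, was tested, at 1.78 and 1.69 scaled reads in the Tdrd7 null libraries and 1.21 and 1.66 in the control libraries, and it did not pass. No marker of erythrocytes (7 listed), muscle (11), photoreceptors (8) or macrophages (8) has a row among the genes analysed here. The summed level of the 5 measured endothelial markers was 13.0 and 17.7 scaled reads in the Tdrd7 null libraries and 17.0 and 10.8 in the control libraries, and 0 of them passed limma (0 at an unadjusted p under 0.05).

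All 6 genes had more scaled reads in both Tdrd7 null libraries than in either control library, and 4 of them passed the test. mt-Atp8, mt-Atp6, mt-Cytb and mt-Co3 rose, while mt-Co1 and mt-Co2 did not pass. The background is large: 10.1% of the 10696 genes tested were called higher and 7.88% lower at a limma adjusted p under 0.05, 18.0% together. Both Tdrd7 null libraries lay above both control libraries in 30.2% of the genes tested and below both in 31.3%. Log2 fold changes had a median of 0.27 over the 6 genes, against -0.01 over all genes tested. None of the 6 was called lower (0 at an unadjusted p under 0.05 by limma, and 0 with limma voom on whole reads).

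**Figure D1:**
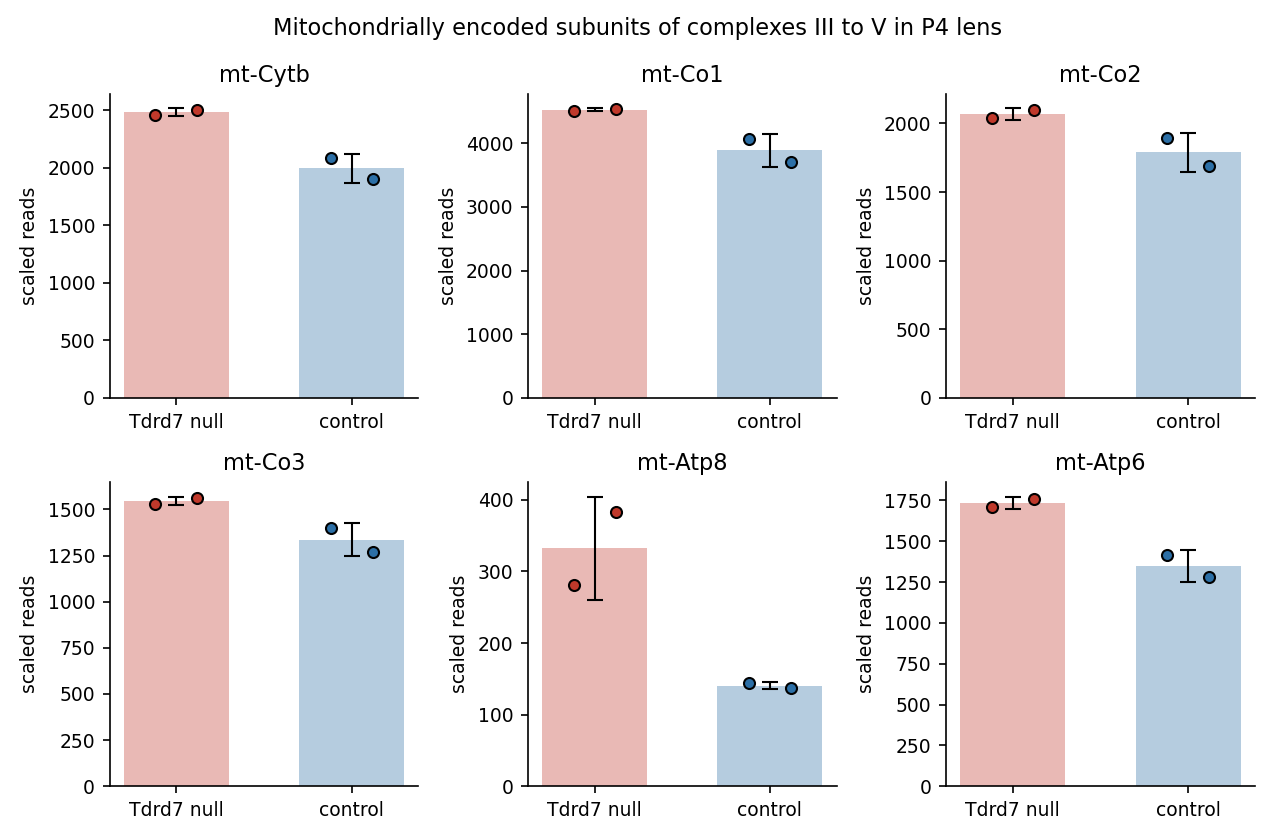
Scaled reads of the 6 genes in each library, with the Tdrd7 null pools on the left (red) and the control pools on the right (blue). Points are libraries, bars are means and error bars are SD (n = 2). In every panel both red points lie above both blue points, and the ratio between the genotypes is largest for mt-Atp8, at 282 and 383 scaled reads in Tdrd7 null libraries against 144 and 137 in control libraries.

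mt-Cytb (ENSMUSG00000064370, position 14145 to 15288) encodes cytochrome b, which holds the quinone sites of complex III and is its sole subunit made in the mitochondrion. It had 2462 and 2506 scaled reads in the Tdrd7 null libraries, against 2085 and 1903 in the control libraries. The groups did not overlap, and the control pools lay further apart from each other than the Tdrd7 null pools did. mt-Cytb rose 1.25-fold, or by 0.32 ± 0.0697 on the log2 scale (SE), with an adjusted p of 0.00954 by limma.

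mt-Co1 (ENSMUSG00000064351, 5328 to 6872) encodes the catalytic subunit of cytochrome c oxidase, where oxygen is reduced. It was the gene with most scaled reads of the 6, at 4509.6 and 4538 in the Tdrd7 null libraries and 4069.9 and 3705 in the control libraries. The groups did not overlap. The log2 fold change was 0.22 (SE 0.0784) and did not pass (limma adjusted p = 0.0683).

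mt-Co2 (ENSMUSG00000064354, 7013 to 7696) encodes the subunit that takes electrons from cytochrome c. It had 2036 and 2096 scaled reads in the Tdrd7 null libraries and 1891 and 1690.4 in the control libraries. The lowest Tdrd7 null pool was 1.08 times the highest control pool, the narrowest of the 6 gaps. The log2 fold change was 0.21 (SE 0.0707) and did not pass (limma adjusted p = 0.0574).

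mt-Co3 (ENSMUSG00000064358, 8607 to 9390) encodes the third core subunit of complex IV. Its message had 1529.6 and 1562 scaled reads in the Tdrd7 null libraries, against 1399.8 and 1272 in the control libraries. The groups did not overlap. mt-Co3 rose by 0.21 ± 0.0657 on the log2 scale (SE), with an adjusted p of 0.0413 by limma. Its fold change was close to those of mt-Co1 and mt-Co2, which did not pass.

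mt-Atp6 (ENSMUSG00000064357, 7927 to 8607) encodes subunit a, which forms the proton path of ATP synthase next to its rotor. It had 1709 and 1762 scaled reads in the Tdrd7 null libraries and 1418 and 1279 in the control libraries. The groups lay well apart, with the lowest Tdrd7 null pool at 1.20 times the highest control pool. mt-Atp6 rose 1.29-fold, or by 0.36 ± 0.0675 on the log2 scale (SE), with an adjusted p of 0.00448 by limma.

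mt-Atp8 (ENSMUSG00000064356, 7766 to 7969) encodes a small membrane subunit of the ATP synthase stator. It had 282 and 383 scaled reads in the Tdrd7 null libraries, against 144 and 137 in the control libraries. The control pools were close together, while the Tdrd7 null pools differed by 0.44 on the log2 scale and the lower of them was 1.96 times the higher control pool. mt-Atp8 rose 2.33-fold, or by 1.22 ± 0.101 on the log2 scale (SE), with an adjusted p of 4.05e-05 by limma. No other gene of the 10696 tested had a larger log2 fold change. Without Tdrd7 null replicate 2 it was 0.999 and without Tdrd7 null replicate 1 it was 1.44.

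The calls differed in how they held over the 20 other settings tried at the same threshold, an adjusted p under 0.05. mt-Atp8 was called higher in 20 of them, with a highest adjusted p by limma of 0.0478. mt-Atp6 and mt-Cytb were called in 15 each, mt-Co3 in 9, mt-Co2 in 5 and mt-Co1 in 4. Without control replicate 2, the pool with the lowest value of all 6 genes, 1 of the 6, mt-Atp8, was called. Without control replicate 1 or Tdrd7 null replicate 2 it was 3, and without Tdrd7 null replicate 1 it was 6. In these fits 1 genotype has a single library, which is assumed to vary like the pair of the other genotype.

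The replicates moved together across the 6 genes. Control replicate 2 lay below control replicate 1 in 6 of 6 genes, by -0.16 to -0.07 on the log2 scale, and Tdrd7 null replicate 2 lay above Tdrd7 null replicate 1 in 6 of 6, by 0.01 to 0.44. The SD of these replicate differences over all genes tested was 0.155 for the Tdrd7 null pair and 0.138 for the control pair. The 6 genes together took 1.21% and 1.35% of scaled reads in the Tdrd7 null libraries, against 1.11% and 0.987% in the control libraries. The mean share was 1.28 ± 0.0991% in Tdrd7 null lenses and 1.05 ± 0.0872% in control lenses (SD, n = 2 each, two-sided exact permutation p = 0.333). That is the smallest p that 2 libraries against 2 can give. The 95% Wilson intervals of these shares, which cover counting error only, were 1.202% to 1.208% and 1.341% to 1.349% in the Tdrd7 null libraries, and 1.107% to 1.114% and 0.984% to 0.990% in the control libraries. Crystallin genes took 62.9% and 59.7% of scaled reads in the Tdrd7 null libraries and 62.3% and 63.0% in the control libraries. Outside the crystallins the share of the 6 genes was 3.30 ± 0.0641% in Tdrd7 null lenses and 2.80 ± 0.197% in control lenses (SD, n = 2 each, exact permutation p = 0.333).

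Ratios between the 6 genes within a library do not depend on how the libraries were scaled. Each library's trends on GC content and length were not removed from them. The complex IV genes kept close to each other. The log2 ratio of mt-Co2 to mt-Co1 was -1.15 and -1.11 in the Tdrd7 null libraries and -1.11 and -1.13 in the control libraries, and these ranges overlapped. The log2 ratio of mt-Co3 to mt-Co1 was -1.56 and -1.54 in the Tdrd7 null libraries, against -1.54 in both control libraries.

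mt-Cytb, mt-Atp6 and mt-Atp8 were higher relative to mt-Co1 in both Tdrd7 null libraries. On the log2 scale the ratio of mt-Cytb to mt-Co1 was -0.87 and -0.86 in the Tdrd7 null libraries, against -0.96 in both control libraries. That of mt-Atp6 to mt-Co1 was -1.40 and -1.37 in the Tdrd7 null libraries, against -1.52 and -1.53 in the control libraries. In both ratios the groups did not overlap, and the gap was several times the distance between replicates, although each exact permutation p was 0.333. With the GC and length trends removed, the log2 fold changes were -0.032 for mt-Atp6, -0.025 for mt-Co1 and 0.032 for mt-Cytb. As a share of the reads of the 6 genes, mt-Co1 took 35.7 ± 0.475% in Tdrd7 null and 37.0 ± 0.0915% in control lenses. mt-Cytb took 19.6 ± 0.107% in Tdrd7 null and 19.0 ± 0.0782% in control lenses, and mt-Atp6 13.7 ± 0.0518% in Tdrd7 null and 12.8 ± 0.0516% in control lenses (SD, n = 2 each).

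Within their shared message, mt-Atp8 was higher relative to mt-Atp6 in both Tdrd7 null libraries. There were 6.07 and 4.60 reads of mt-Atp6 for each read of mt-Atp8 in the Tdrd7 null libraries, against 9.85 and 9.35 in the control libraries. The log2 ratio of mt-Atp8 to mt-Atp6 was -2.40 ± 0.284 in Tdrd7 null and -3.26 ± 0.0534 in control lenses (SD, n = 2 each, difference 0.86, two-sided exact permutation p = 0.333). The groups did not overlap, and the Tdrd7 null libraries lay further from each other than the control libraries. Leaving out 1 library at a time gave differences of 0.66 to 1.06.

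Levels of different genes can be compared only per length. Per kilobase of full gene length, mt-Co2 and mt-Co1 had the most scaled reads of the 6 and mt-Atp8 the fewest, in both genotypes. mt-Atp8 and mt-Atp6 share a message and yet differed per kilobase, so this order need not be that of the messages. In Tdrd7 null lenses the order was mt-Co2 (3021 ± 62.0 scaled reads per kilobase), mt-Co1 (2928 ± 13.2), mt-Atp6 (2548 ± 55.1), mt-Cytb (2171 ± 26.9), mt-Co3 (1972 ± 29.6) and mt-Atp8 (1629.7 ± 353), with n = 2, and no neighbours overlapped. In control lenses it was the same order, at 2618 ± 207, 2516 ± 167, 1981 ± 144, 1743 ± 113, 1704 ± 115 and 688 ± 24.7 scaled reads per kilobase. There mt-Co2 and mt-Co1 overlapped, as did mt-Cytb and mt-Co3. The place of mt-Atp8 in Tdrd7 null lenses depended on the length used. With all its reads divided by the 161 bases it does not share, mt-Atp8 stood at 1749 and 2381 scaled reads per kilobase in Tdrd7 null libraries, a range that overlapped mt-Co3 and mt-Cytb, and at 894 and 850.0 in control libraries, still below both. Where its reads lay within the gene is not known from these values.

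**Figure D2:**
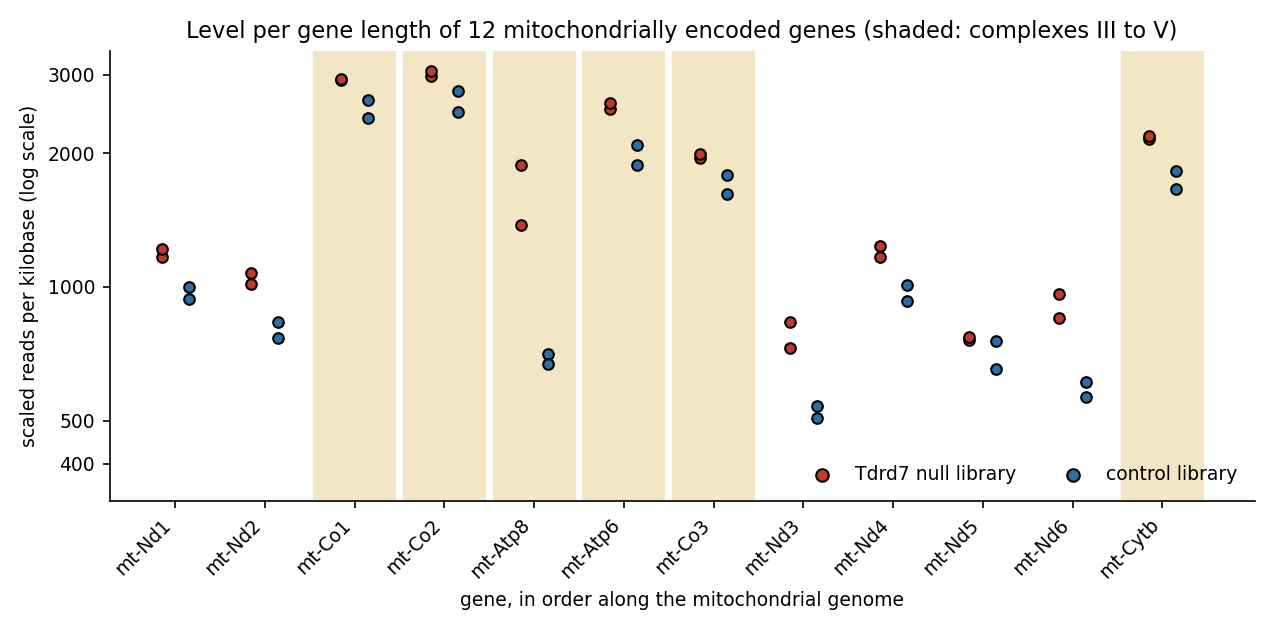
Scaled reads per kilobase of gene length, on a log axis, for the 12 mitochondrially encoded genes in their order along the genome, with Tdrd7 null libraries in red left of control libraries in blue. The shaded genes belong to complexes III to V. mt-Co2, mt-Co1 and mt-Atp6 lie highest in both genotypes, and mt-Atp8 has the widest gap between genotypes, at means of 1629.7 scaled reads per kilobase in Tdrd7 null and 688 in control lenses.

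The mitochondrially encoded subunits of complex I, the NADH dehydrogenase at the entry of the chain, shifted the same way. Of the 6 measured mt-Nd genes 5 rose and 0 fell by limma (5 and 0 at an unadjusted p under 0.05), with a median log2 fold change of 0.35 and a range of 0.13 to 0.62. Over all genes tested 10.1% were called higher. Over the 610 genes under 40% GC, where the 12 mitochondrially encoded genes lie, it was 43.4%. mt-Nd6 had 441 and 499.5 scaled reads in Tdrd7 null libraries and 317 and 294 in control libraries, a log2 fold change of 0.62. mt-Nd3 (0.57) and mt-Nd2 (0.39) came next. mt-Nd6 lies on the minus strand, unlike the other mt-Nd genes. In these unstranded libraries, plus-strand transcripts across mt-Nd6 would add to its values. With each library's trends on GC content and length removed, 0 of the 6 passed limma (1 higher and 1 lower at an unadjusted p under 0.05), their median was 0.0064 and mt-Nd6 stood at 0.16. mt-Nd4l and the 2 ribosomal RNAs of the mitochondrial genome were not analysed here. The 12 genes together had 18386 and 19035 scaled reads in the Tdrd7 null libraries, against 16103 and 14623 in the control libraries.

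Base composition moved with these differences, and over all genes tested length did so mainly under 700 nt. The median log2 fold change was 0.10 over 105 genes of 400 to 700 nt and 0.015 over 268 genes of 700 to 1000 nt. It was 0.00047 over 826 genes of 1000 to 1600 nt and -0.0086 over 4862 genes of 3000 to 6000 nt. The GC content of the 6 genes was between 31.9% for mt-Atp8 and 39.9% for mt-Co1. Of the 610 tested genes under 40% GC, 43.4% were called higher in Tdrd7 null lenses and 0.164% lower, with a median log2 fold change of 0.22. Over these 610 genes replicate 2 differed from replicate 1 by a median of 0.03 in Tdrd7 null and -0.02 in control libraries, the signs also seen in the 6 genes. Between 38% and 40% GC, where mt-Cytb, mt-Co1, mt-Co2 and mt-Co3 lie, the median over 402 genes was 0.21 and the interquartile range 0.12 to 0.29. The values of mt-Co1, mt-Co2 and mt-Co3 fell inside that range and that of mt-Cytb, 0.32, just above it. Between 35% and 38%, where mt-Atp6 lies, the median over 184 genes was 0.26 and the interquartile range 0.14 to 0.35, against 0.36 for mt-Atp6.

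mt-Atp8 was at the edge of both scales. It was the shortest of the 10656 tested genes with a known length, and 1 gene had a lower GC content. Under 35% GC there were 24 genes, with a median log2 fold change of 0.19 and an interquartile range of 0.13 to 0.31, and mt-Atp8 stood at 1.22. Under 400 nt there were 4 genes, 2 of them mitochondrially encoded. Across the 12 mitochondrially encoded genes, the log2 fold change was larger in shorter genes (Pearson's r -0.710, Spearman's rho -0.671) and in genes of lower GC content (r -0.824, rho -0.734). These 12 genes share their libraries, and all but mt-Nd6, which lies on the minus strand, share plus-strand precursor transcripts. The correlations are given as a description without a test.

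**Figure D3:**
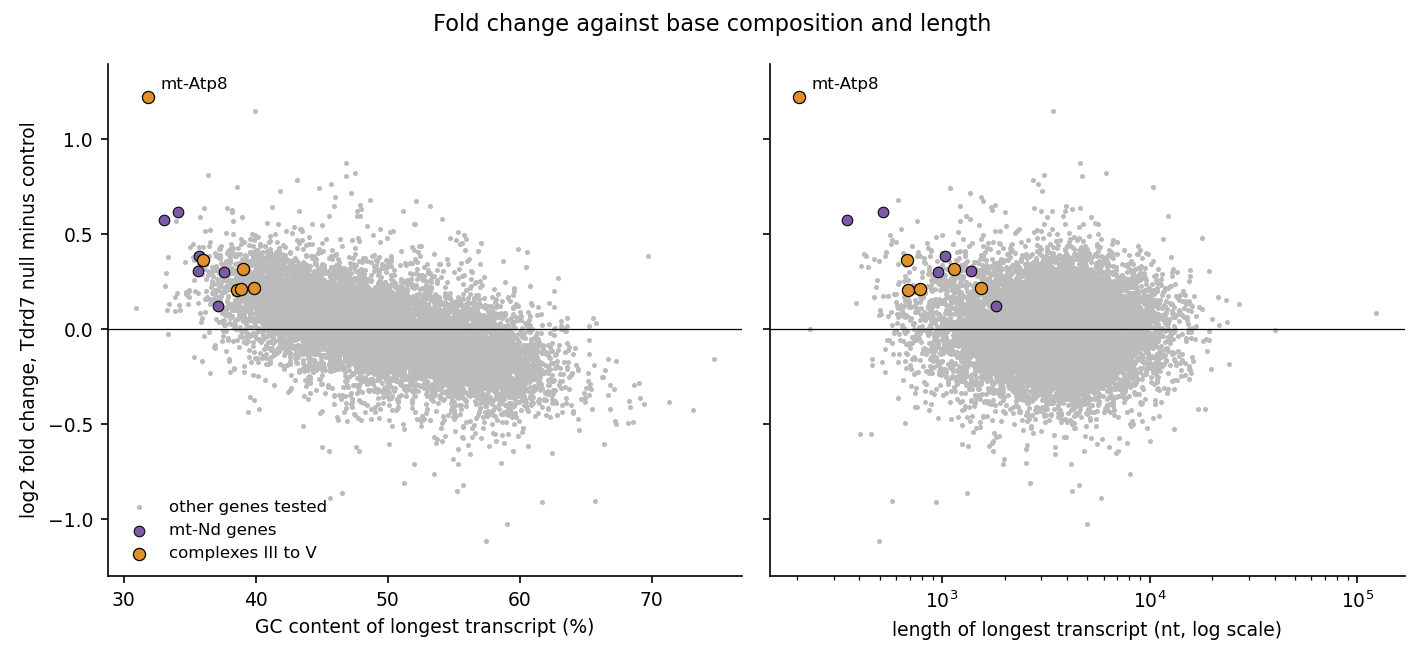
Log2 fold change (Tdrd7 null minus control) of the genes tested, plotted against the GC content in percent (left) and the length in nt on a log axis (right) of the longest annotated transcript. Orange points are the 6 genes of complexes III to V, purple points the 6 mt-Nd genes and grey points all others, with 1 gene outside the plotted range. The orange points other than mt-Atp8 lie within the grey cloud at low GC content, where most genes are above 0, and mt-Atp8 lies alone at 1.22.

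With each library's trend on GC content removed, 1 of the 6 genes, mt-Atp8, was called higher and none lower, where 2.77% of all genes were called higher and 1.51% lower (4.28% together). mt-Atp8 then stood at 0.88 ± 0.0940 on the log2 scale (SE), with an adjusted p of 0.000202 by limma. The other 5 lay between 0.00 for mt-Co2 and 0.12 for mt-Cytb. With the trends on GC content and length removed together, where 2.01% of all genes were called higher and 1.24% lower (3.25% together), mt-Atp8 was again the one gene called, at 0.60 (SE 0.112, limma adjusted p = 0.0140). At 204 nt the trend on length rests on few genes, since 4 tested genes are under 400 nt. The other 5 then stood at 0.03 for mt-Cytb, -0.03 for mt-Co1, -0.14 for mt-Co2, -0.12 for mt-Co3 and -0.03 for mt-Atp6, and none passed.

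**Figure D4:**
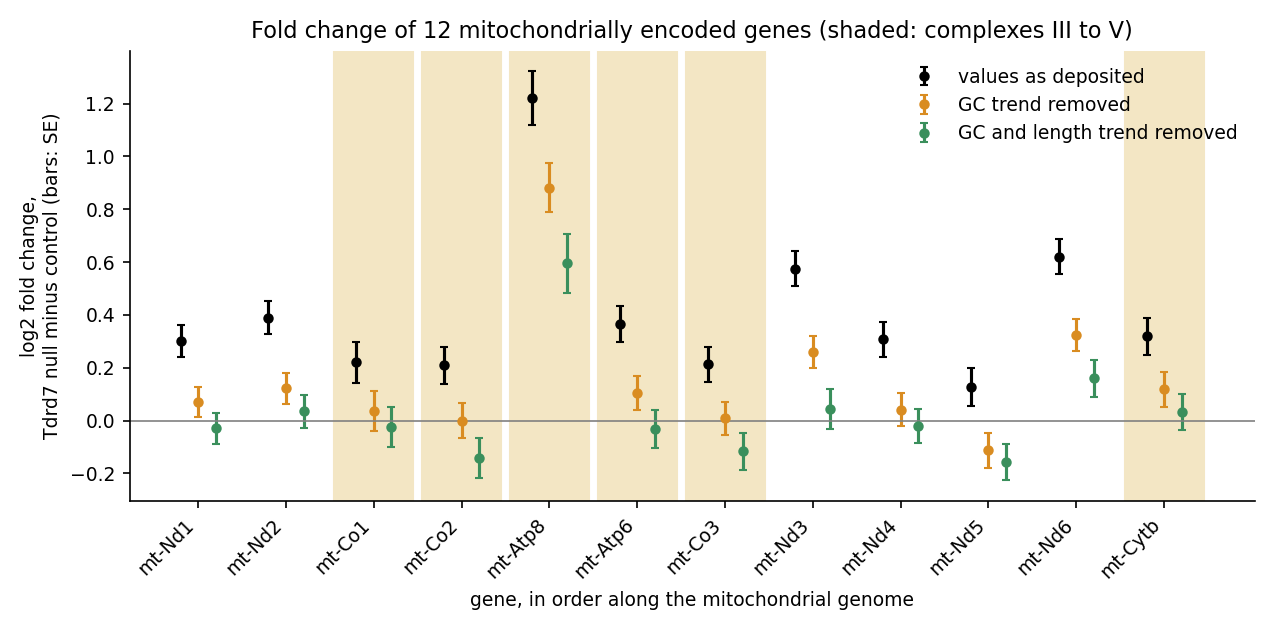
Log2 fold change (Tdrd7 null minus control) with its SE for the 12 mitochondrially encoded genes, from the values as deposited (black), with the GC trend removed (orange) and with the GC and length trends removed (green). The shaded genes belong to complexes III to V. mt-Atp8 stands at 1.22, 0.88 and 0.60, and with the GC trend or both trends removed the other shaded genes lie between -0.14 and 0.12.

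Outside the mitochondrial genome, the genes whose 4 values were most like the median profile of the 6 genes were March7, Yipf6, Taf7, Cul4b and Acsl3. Likeness was the Euclidean distance between log2 values centred on each gene's mean over the 4 libraries, among the 5868 genes that averaged 10 or more scaled reads. The distances ran from 0.0108 for March7, a ubiquitin ligase gene, to 0.0221 for Acsl3, an acyl-CoA synthetase gene that shares 244 nt of exon with Utp14b. March7 had 36.9 and 37.8 scaled reads in the Tdrd7 null libraries, against 32.1 and 29.2 in the control libraries. mt-Cytb itself lay at 0.0448, with 33 of those genes closer to the median profile than it was, and mt-Atp8 at 0.994, with 5863 closer.

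Most nuclear partners of these subunits were not called. Over 127 tested genes of 7 nuclear lists on the respiratory complexes and on mitochondrial upkeep, 25 rose and 3 fell, 22.0% together. Of all genes tested, 10.1% were called higher and 7.88% lower, 18.0% together, so the calls in the lists leaned upward. The median log2 fold change of the 127 genes was 0.05. The share called was 22.2% of 9 nuclear genes of complex III, 30.8% of 13 of complex IV and 41.2% of 17 of complex V. The lists had median GC contents between 45.4% and 50.2%, above those of the 6 genes. With the GC and length trends removed, 2 of the 127 were called higher and 4 lower, where 2.01% of all genes were called higher and 1.24% lower. Of the 17 complex V genes 2 were called higher and 2 lower there.

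Complex III has 9 measured nuclear subunits, of which 2 rose and 0 fell by limma (3 and 1 at an unadjusted p under 0.05), with a median log2 fold change of 0.08. Uqcrb, a subunit that binds ubiquinone, had 35.5 and 37.5 scaled reads in the Tdrd7 null libraries and 25.6 and 27.4 in the control libraries. It rose by 0.45 ± 0.0641 on the log2 scale (SE), with an adjusted p of 0.00137 by limma, and it stood at 0.11 and did not pass with the GC and length trends removed. The hinge protein gene Uqcrh rose (0.28). The core subunits Uqcrc2 and Uqcrc1 stood at 0.12 and -0.17 and did not pass, and Uqcrc2 shares 504 nt with Pdzd9. Within libraries, the log2 ratio of mt-Cytb to the sum of the nuclear subunits was 1.98 and 2.01 in the Tdrd7 null libraries, against 1.87 and 1.66 in the control libraries (exact permutation p = 0.333).

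Of 13 measured nuclear genes of complex IV 3 rose and 1 fell, with a median of 0.07. Cox7b (0.26), Ndufa4 (0.26) and Cox6b1 (0.25), which encode small subunits, rose, and with the GC and length trends removed stood at 0.019, 0.0070 and 0.14 and did not pass. Cox4i1, the largest nuclear subunit, had 164 and 146 scaled reads in the Tdrd7 null libraries, against 175 and 187 in the control libraries, and fell by 0.22 on the log2 scale (SE 0.0618, limma adjusted p = 0.0258). It shares 154 nt with Emc8 and stood at -0.17 with both trends removed (limma adjusted p = 0.0899). Of the 13 genes 1 was called with both trends removed, the small subunit gene Cox7c, which was lower (-0.56, limma adjusted p = 0.0365). For complex IV, the log2 ratio of the 3 mt-Co genes to the nuclear subunits was 3.04 and 3.09 in Tdrd7 null libraries and 3.05 and 2.78 in control libraries, and the groups overlapped (exact permutation p = 0.667).

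Of 17 measured nuclear genes of complex V 6 rose and 1 fell, with a median of 0.07. Atp5f1, the stator subunit b, rose by 0.32 on the log2 scale and shares 337 nt with Wdr77. Usmg5 (0.35), Atp5h (0.29) and Atp5k (0.50), all of the membrane part or the stator, also rose. With the GC and length trends removed Atp5k was still called (0.47, limma adjusted p = 0.0237), and Atp5f1, Usmg5 and Atp5h were not. Of the 17 genes 2010107E04Rik was also called higher there (0.30), and Atp5l (-0.40) and Atp5o (-0.21) were called lower. Atp5l shares 133 nt with Gm30934 and Atp5o 356 nt with Gm15976. Cox7c, 2010107E04Rik, Atp5l and Atp5o were named after their values were seen. For complex V, the log2 ratio of mt-Atp6 plus mt-Atp8 to the nuclear subunits was -0.08 and 0.02 in the Tdrd7 null libraries, against -0.31 and -0.53 in the control libraries. These groups lay apart (exact permutation p = 0.333). The GC and length trends were not removed from this ratio or from those of complexes III and IV. With both removed, the log2 fold changes were -0.032 for mt-Atp6, 0.60 for mt-Atp8 and 0.032 for mt-Cytb.

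Of the genes that serve the 6 transcripts and their products, 15.4% of the assembly factors, 17.6% of the genes of mitochondrial DNA upkeep and 8.70% of the genes of mitochondrial RNA processing were called, against 18.0% of all genes tested. Among 26 assembly factors of complexes III to V, 3 rose and 1 fell, with a median of -0.02. Coa5 (0.25), Cox20 (0.36) and Pet100 (0.51), which act in building complex IV, rose, and Cox10, a heme A synthesis enzyme, fell by 0.28 on the log2 scale. Cox20 shares 804 nt with Hnrnpu and Pet100 shares 941 nt with Pcp2, so both are uncertain. With the GC and length trends removed none of these 4 passed, at 0.18 for Coa5, 0.061 for Cox20, 0.46 for Pet100 and -0.18 for Cox10, and 1 of the 26 was called, Cox16, which was lower (-0.48), shares 2130 nt with Gm20498 and was also named after its value was seen. Among 17 genes of mitochondrial DNA maintenance and transcription 3 rose and 0 fell by limma (4 and 1 at an unadjusted p under 0.05), with a median of 0.10. The transcription factor gene Gabpa (0.27), the nuclease gene Mgme1 (0.34) and the single-strand binding protein gene Ssbp1 (0.24) rose, where Gabpa shares 397 nt with Atp5j and Mgme1 206 nt with Snx5. Tfam, which packages mitochondrial DNA and starts its transcription, had 18.0 and 18.9 scaled reads in the Tdrd7 null libraries and 17.6 and 16.6 in the control libraries, and did not pass (0.10, limma adjusted p = 0.325).

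Among 23 genes of mitochondrial RNA processing, poly(A) addition and stability 2 rose and 0 fell by limma (7 and 0 at an unadjusted p under 0.05), with a median of 0.02. Ptcd3 (0.26), whose product binds the mitochondrial ribosome, and Rexo2 (0.17), a mitochondrial oligoribonuclease gene, rose. Hsd17b10, part of the enzyme that cuts tRNAs out of the precursor, stood at 0.02 and Grsf1, an RNA granule protein of the mitochondrion, at -0.01, and neither passed. Among 22 nuclear genes of other mitochondrial compartments, used as a measure of mitochondrial content, 27.3% were called: 6 rose and 0 fell by limma (8 and 1 at an unadjusted p under 0.05), with a median of 0.04. Immt (0.25), of the inner membrane folds, the import receptor gene Tomm22 (0.31), the pore gene Vdac3 (0.28) and the chaperonin gene Hspe1 (0.24) rose. Immt shares 185 nt with Gm44771 and Hspe1 112 nt with Hspd1. With the GC and length trends removed 0 genes of these last 3 lists passed limma (3, 2 and 3 at an unadjusted p under 0.05).

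**Figure D5:**
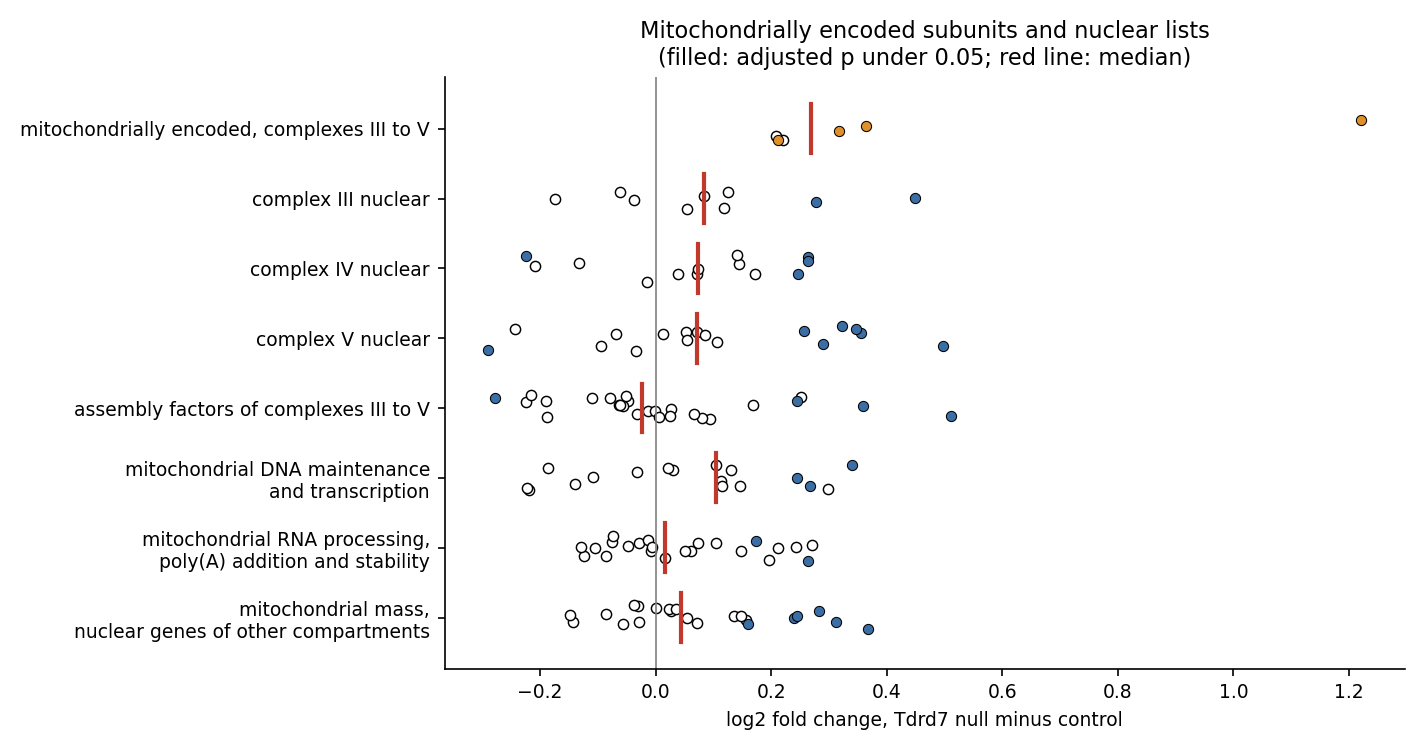
Log2 fold change (Tdrd7 null minus control) of the 6 mitochondrially encoded genes (top row) and of the tested members of 7 nuclear lists, 1 point per gene, spread vertically for legibility. Filled points passed limma at an adjusted p under 0.05 and red lines are medians. The top row has a median of 0.27 and no point below 0.21, while the nuclear lists have medians between -0.02 and 0.10 and points on both sides of 0.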

How the data were processed

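Poly(A) RNA from 4 pools of lenses was sequenced from both ends for 75 nt with a kit that does not mark strand. The submitters' processing notes name Trimmomatic, TopHat2 2.0.9, Cufflinks, Cuffnorm and mm10 (GRCm38). No source used here says which step gave the deposited scaled reads. FPKM had been planned for, but the deposited signal values were scaled reads, 1 per gene and library, without correction for length. All lay within 0.002 reads of whole multiples of 1 step per library. That step was taken to be 1 read, and the read totals given here rest on it. Replicates were compared as separate pools.

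For 10696 genes with a mean of at least 1, log2(scaled reads + 1) was tested two-sided in limma 3.58.1 (R 4.3.3), with an intensity trend and Benjamini-Hochberg adjustment over all genes. Fold changes on this scale understate low genes. Calls are at an adjusted p under 0.05. Trends were natural splines with 5 degrees of freedom on GC content and log2 length from GENCODE M21. Copies were sought with BLAST 2.17.0 (at least 100 nt) and exon overlap with bedtools 2.31.1. Exact permutation tests used SciPy 1.17.1. The fit was tested on simulated counts.

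Members, gene lists and the naming rule (all 6 genes, up to 3 mt-Nd genes, up to 4 genes per list, called ones first, and 5 genes by likeness) were chosen with earlier results of these data known. March7 is listed under a date in the table and was named through its gene ID.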

Additional observations from a re-analysis of the deposited data

How the results depend on the processing

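There were 1920 genes called among all tested. The count was 987 when scaled to total reads, 959 when scaled without the mitochondrially encoded genes, 16 without the intensity trend, 348 with the GC and length trends removed (587 with the replicate block too), 458 with the GC trend alone removed, 3036 with a crossed replicate block, and 404 to 2136 when 1 library was left out. Of the 6 genes 4 were called higher. The count was 1 without the intensity trend and 1 under each of the 3 trend removals, and 1 to 6 when 1 library was left out. The mt-Nd count of 5 was 0 without the intensity trend, 0 with both trends removed, with or without the block, 2 with the GC trend alone removed and 3 to 5 when 1 library was left out. The nuclear count of 28 was 12 under both total scalings, 0 without the intensity trend, 6 with both trends removed, 9 with the block too, 13 with the GC trend alone removed and 2 to 31 when 1 library was left out. No gene of the 6 was called lower under any alternative run. The difference in the share of reads in the 6 genes, 0.226 percentage points, was 0.156 to 0.296 when 1 library was left out.

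With both trends removed, with or without the block, the sign turned for mt-Co1 (-0.025), mt-Co2 (-0.14), mt-Co3 (-0.12), mt-Atp6 (-0.032), mt-Nd1 (-0.030), mt-Nd4 (-0.022), mt-Nd5 (-0.16), Uqcrc2 (-0.020) and Hsd17b10 (-0.037). With the GC trend alone removed it turned for mt-Nd5 (-0.11) and for mt-Co2 (-0.0014). Hsd17b10 was also at -0.023 when scaled without the crystallins, and at -0.057 to 0.091 when 1 library was left out. Grsf1 was at 0.00066 and 0.0055 under the total scalings, and at -0.057 to 0.045 when 1 library was left out. The causes were not tested.

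With the replicate number as a block 2117 genes and 3 of the 6 genes were called, mt-Co3 losing its call. The labels do not say that a number pairs pools. Over genes, the replicate differences of Tdrd7 null and control were weakly and inversely related (correlation -0.151). That value cannot decide whether equal numbers pair the pools. Voom on whole reads called 1895 genes and 6 of the 6. It, the GC trend alone and the crossed block were chosen after seeing the data. The planned quasi-likelihood and negative binomial count models, 3 in all, were not run. The step between values was assumed, not shown, to be a single read. With 422201 to 470931 reads per library in the 6 genes, counting error is small beside the spread between the 2 pools, which limits the tests.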
